A study of Rattus norvegicus with 18 samples.

Results

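The imprinted Dlk1-Dio3 cluster of the rat was followed in gastrocnemius, a mixed-fibre muscle of the calf, by RNA sequencing of total RNA depleted of ribosomal RNA. Its members were the rows of the deposited gene count table that start between positions 133500000 and 134600000 of chromosome 6 in the Rnor_6.0 assembly and have at least 1 count. There were 96 such rows among 104 in that window, of 29537 rows with a count and 32883 rows in all. The rats were male Brown Norway (BN/SsNOlaHSD), fed ad libitum (AL) until 2 months of age. The young AL group was killed at 6 months and the aged AL group at 28 months. The aged CR group, also killed at 28 months, had been on caloric restriction (CR) from 2 months, at 55% of the AL intake. Each group held 6 rats with 1 library each, and the labels give no genetic change. The library numbers form a separate run for each group, so handling in such runs and group cannot be told apart.

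Imprinted genes are read from only one parental chromosome. In this cluster the paternal chromosome expresses the protein-coding genes Dlk1, Rtl1 and Dio3, and the maternal chromosome expresses long noncoding RNAs, among them Meg3, Rian and Mirg, together with many small nucleolar RNAs and microRNAs cut from such transcripts. MicroRNAs repress messenger RNAs that pair with their seed, the bases 2 to 8 of the mature strand. The cluster is known in muscle for the callipyge mutation of sheep, which enlarges the hindquarter muscles, and its RNAs are abundant before birth and fall as muscle matures.

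Neither the count table nor the reference tables pair the identifiers of these rows with gene symbols: 0 identifiers of the count table were found in the RefSeq tables. The rows are therefore described by position, length and exons, and whether each one is noncoding could not be checked. In RefSeq (assembly GRCr8) the interval from Dlk1 to Dio3 holds 198 genes, of which 84 are small nucleolar RNAs, 59 are microRNAs, 44 are pseudogenes, 6 are long noncoding RNAs and 5 are protein-coding. It lists a sequence for 53 microRNA hairpins of 61 to 123 bases and for 100 mature microRNAs of 17 to 25 bases. Only 13 of these mature microRNAs share a seed with another of the cluster. They are printed to show how far the cluster repeats its own target code, 5′ to 3′ with the seed in capitals, and they are not assigned to any row:
rno-miR-410-5p: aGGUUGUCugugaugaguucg
rno-miR-494-5p: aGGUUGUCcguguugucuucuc
rno-miR-496-5p: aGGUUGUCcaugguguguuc
rno-miR-1193-3p: uAGGUCACccguuuuacuaucc
rno-miR-370-5p: cAGGUCACgucucugcaguuacac
rno-miR-381-3p: uAUACAAGggcaagcucu
rno-miR-539-3p: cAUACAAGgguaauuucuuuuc
rno-miR-299a-3p: uAUGUGGGacgguaaaccgcu
rno-miR-299b-3p: uAUGUGGGacgguaaac
rno-miR-299a-5p: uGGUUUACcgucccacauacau
rno-miR-299b-5p: cGGUUUACcgucccacauac
rno-miR-376b-5p: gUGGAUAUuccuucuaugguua
rno-miR-376c-5p: gUGGAUAUuccuucuauguuu

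The first 3 of these share one seed and the others fall into 5 pairs. The miR-299a and miR-299b pairs join a plus-strand hairpin with a minus-strand hairpin of complementary sequence, so they need not be separate repeats. In the cluster 9 pairs of hairpins overlap on opposite strands. A further 6 hairpins lie within Rtl1, Mir3543 on the minus strand and the others on the plus strand. Rtl1 is the retrotransposon-derived gene whose message the microRNAs transcribed from its opposite strand are known to cut. The mature strands below, with the seed in capitals, show plus-strand members of that antisense group:
rno-miR-433-3p: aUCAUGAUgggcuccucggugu
rno-miR-127-3p: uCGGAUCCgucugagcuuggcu
rno-miR-431: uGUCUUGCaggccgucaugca
rno-miR-434-3p: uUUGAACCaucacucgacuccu
rno-miR-136-3p: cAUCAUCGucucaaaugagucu

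The libraries held 17335401 to 27432767 counts, and 154 to 573 of these fell on the cluster. Values are CPM, counts scaled to library size with trimmed-mean (TMM) factors, and 3 counts correspond to 0.0981 to 0.180 CPM. The library of rat 8 (aged AL) and library 8828 (aged CR) stood apart from their groups. Over 14786 genes their median correlation with the other libraries of their group was 0.916 and 0.955, against 0.971 to 0.988 for the other 16 libraries. In the aged CR group, 3 libraries (8826, 8827 and 8828) could be assigned to the group but not to a single rat. Their sample and library numbers point to different rats of the group. Library 8826 carries the sample number of rat 15, which library 8825 also carries. All were taken as separate rats, which the labels do not settle.

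Most rows were small and barely covered. Of the 96 rows, 92 were 66 to 137 bases long, the size of hairpins and small nucleolar RNAs, and 4 were 200 bases or longer. The plus strand carried 87 rows and the minus strand 9. The median row had 11 counts over all 18 libraries, 47 rows had 10 counts or fewer, and 9 rows had a count in every library. Only 5 rows passed the low-count filter and were tested, and they held 3306 of the 5785 counts of the cluster (57.1%). The other 91 rows had no test in this main fit, and p-values for them come only from alternative fits. A count on a hairpin-sized row records a fragment of total RNA that overlaps it, not a mature microRNA.

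Along the chromosome the 104 rows fell into 7 blocks separated by gaps of more than 10000 bases. Block 1 was a single row of 6 merged exons and held 20.7% of the counts of the cluster. Block 2 was a single minus-strand row of 306 bases with 6 counts. Block 3 (chr6:133662524-133716847) had 11 members and 25.3% of the counts, and block 4 had 3 members and 27 counts. Block 5 (chr6:133753217-133798358) had 30 members, all on the plus strand, and 47.2% of the counts. Block 6 had 15 members with 117 counts and block 7 (chr6:133857700-133898905) had 35 members with 240 counts.

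Block 5 was built as a regular array. Of the 29 steps from one row to the next in the block, 21 lay within a chosen limit of 15 bases around 890, at 881 to 905 bases. The stretch from the first to the last of these steps was taken as a run. It had 24 rows of 81 to 95 bases, from 133774598 to 133796051. The rows of the run had 37 to 454 counts with a median of 73, and its 2 highest rows held 35.7% of its 2430 counts. Block 6 held a similar series of 12 rows of 75 bases with steps of 705 to 1081 bases, and these had only 1 to 24 counts each. Of the 8 rows without a count, 5 lie inside exons of the 5-exon minus-strand row of block 3. As counted, a fragment overlapping exons of both rows was assigned to neither, so their 0 is not a measured absence.

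**Figure D1:**
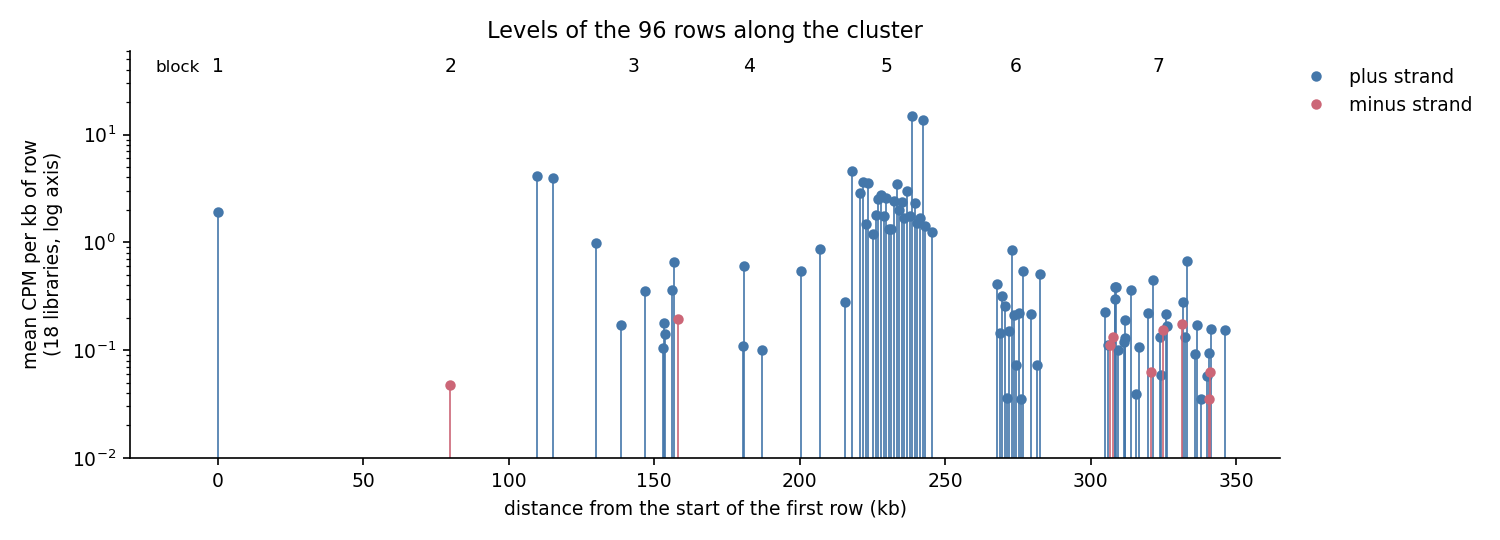
Mean level of each of the 96 rows over 18 libraries, in CPM per kb of row on a log axis, against the distance of its start from the first row in kb, coloured by strand, with the blocks numbered above. The 2 highest stems, at 15.02 and 13.58 CPM per kb, stand in block 5.

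Per length, the rows of block 5 had a median of 1.89 CPM per kb, against 0.355 in block 3, 0.218 in block 6 and 0.133 in block 7. The highest rows, both of 81 bases, reached 15.02 and 13.58 CPM per kb, while the 80-base row that opens block 3 reached 4.13, the 3-exon row of block 3 reached 3.98 and the 6-exon row of block 1 reached 1.93, all above the median of block 5. Rows shorter than a sequenced fragment gain from this scaling, because a fragment counts in full when it only overlaps the row.

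The cluster as a whole was lower on average in both aged groups, within the spread between rats. The sum over the 96 rows in young AL rats 1 to 6 was 10.4, 18.9, 34.3, 22.6, 15.7 and 17.3 CPM (mean 19.9 ± 8.12, SD, n = 6). In aged AL rats 7 to 12 it was 23.8, 6.50, 12.7, 12.9, 10.1 and 15.9 CPM (mean 13.7 ± 5.88, SD, n = 6). In the aged CR group it was 7.39, 14.6 and 11.7 CPM in rats 13 to 15 and 10.5, 19.8 and 9.35 CPM in libraries 8826, 8827 and 8828 (mean 12.2 ± 4.42, SD, n = 6). The groups overlapped in every comparison, although 2 aged AL and 2 aged CR libraries lay below every young library. Rat 3 of the young group and rat 7 of the aged AL group were the highest of their groups.

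On the log2 scale the ratio of group means was −0.54 for aged AL against young AL, −0.70 for aged CR against young AL and −0.16 for aged CR against aged AL. These are descriptions without a test. Without rat 3 the first 2 ratios were −0.31 and −0.48. Without rat 7 the ratio of aged CR to aged AL was 0.07, so its direction rests on that library. Without rat 8 and library 8828 together the 3 ratios were −0.40, −0.64 and −0.24. Both aged groups were compared with the same young libraries. Counting error alone gave a coefficient of variation of 4.18 to 8.06% per library, against 36.2 to 43.0% between the rats of a group. In whole tissue, fewer cells of a type and less RNA per cell cannot be told apart.

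**Figure D2:**
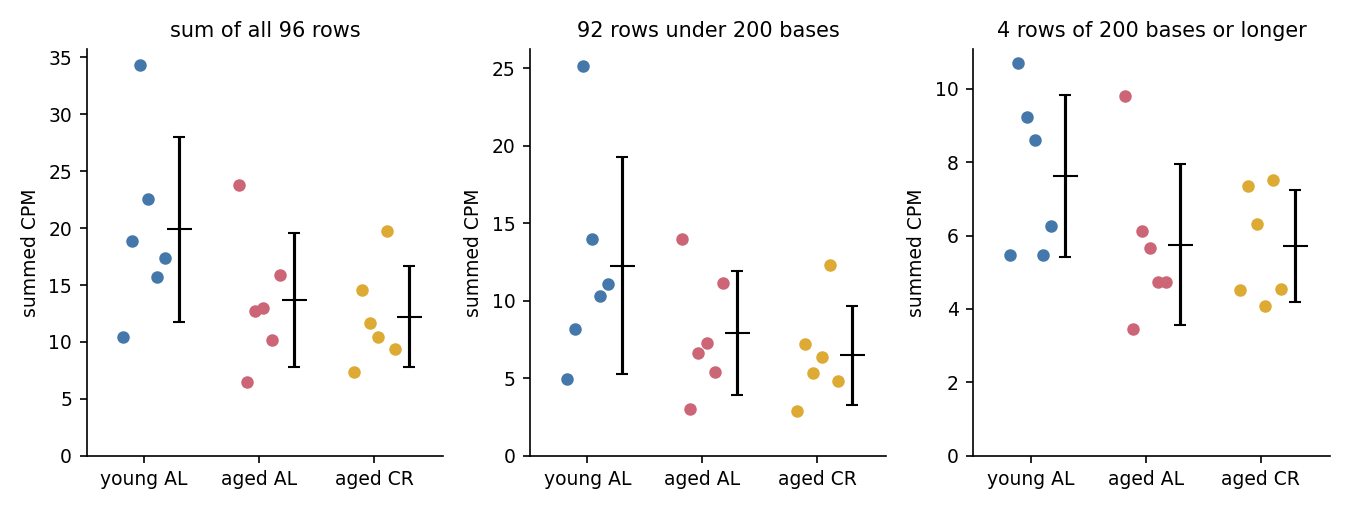
Summed CPM of all 96 rows, of the 92 rows under 200 bases and of the 4 longer rows in each library, with the mean and SD of each group (n = 6) as black bars. Young AL rat 3, at 34.3 CPM over all rows, is the highest point, and the groups overlap in each panel.

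Rows under 200 bases summed to 12.3 ± 6.98 CPM in young AL, 7.91 ± 3.98 in aged AL and 6.48 ± 3.20 in aged CR rats (SD, n = 6 each), log2 ratios of −0.63 and −0.92 against young. The 4 longer rows summed to 7.63 ± 2.20, 5.75 ± 2.19 and 5.72 ± 1.53 CPM, a log2 ratio of −0.41 in both aged groups. Young rat 3 weighs on this contrast: without it the small rows had log2 ratios of −0.29 in aged AL and −0.58 in aged CR against young, and the longer rows −0.34 and −0.35. By single rows, 67 of 96 had a lower mean in aged AL than in young AL rats, 70 in aged CR than in young AL rats, and 56 in aged CR than in aged AL rats. Of all genes with a count, 54.8%, 53.6% and 49.6% had the lower mean in the same comparisons. The rows share libraries and many hold only a few counts. No count was found in any library of the group for 8 rows in young AL, 13 in aged AL and 17 in aged CR rats.

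By position, block 5 held the most counts. Its sum was 10.3 ± 6.80 CPM in young AL (3.58 to 23.1), 6.54 ± 3.47 in aged AL (2.45 to 11.9) and 5.05 ± 2.43 in aged CR rats (2.25 to 9.43), SD and n = 6 each. The log2 ratios were −0.66 for aged AL and −1.03 for aged CR against young, and −0.25 and −0.62 without rat 3. Block 3 had 4.48 ± 1.69, 3.24 ± 1.23 and 3.804 ± 1.80 CPM, a log2 ratio of 0.23 for aged CR against aged AL that became −0.01 without library 8827. Block 7 had 0.786, 0.541 and 0.534 CPM, and block 6 had 0.458 ± 0.133, 0.243 ± 0.161 and 0.196 ± 0.139 CPM. In block 6 the young libraries spanned 0.303 to 0.677 CPM and the aged CR libraries 0 to 0.327 CPM, from 6 to 16 and from 0 to 10 counts per library, and the log2 ratios against young were −0.91 in aged AL and −1.22 in aged CR rats.

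None of the 5 tested rows was called in any of the 3 comparisons by edgeR's quasi-likelihood test, at an adjusted p of at most 0.05 (Benjamini-Hochberg over 14646 genes) and a fold change of at least 1.5. The share of all tested genes called was 3.39% for aged AL against young AL, 1.98% for aged CR against young AL and 1.38% for aged CR against aged AL. At an unadjusted p under 0.05, 0, 3 and 0 of the 5 rows passed, the 3 of them lower in aged CR than in young muscle, against 22.3%, 19.3% and 15.3% of all genes. The median log2 fold change of the 5 rows was −0.46, −1.08 and −0.40, and that of all tested genes 0.01, 0.00 and −0.02. In the fit without a filter, which holds all 96 rows, 4, 15 and 5 rows had an unadjusted p under 0.05, against 16.5%, 15.5% and 10.9% of the 29537 genes. A share of 15 in 96 is close to that background. Of the 15, 14 were lower in aged CR muscle, where 9.12% of all genes passed and were lower, 58.7% of those that passed.

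The row of block 1, ENSRNOG00000019584 (chr6:133552821-133583751, plus strand, 6 merged exons, 1608 bases), had the most counts of the cluster. Young AL rats 1 to 6 had 3.54, 6.56, 3.24, 3.05, 2.58 and 3.46 CPM. Aged AL rats 7 to 12 had 5.14, 1.64, 3.19, 2.94, 3.12 and 2.22 CPM. The aged CR libraries had 2.88, 3.05, 3.71, 1.33, 2.07 and 2.19 CPM, in the order given for the sum. The groups overlapped, with 1 aged AL and 1 aged CR library above the young median. By edgeR's quasi-likelihood test the log2 fold change was −0.30 (SE 0.29, adjusted p = 0.574) in aged AL and −0.56 (SE 0.29, adjusted p = 0.300) in aged CR against young AL muscle, and −0.06 and −0.32 without rat 2. Without rat 7 the first was −0.51.

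The longest row of the plus strand in block 3, ENSRNOG00000059660 (chr6:133667975-133676907, 3 merged exons, 583 bases), was the only tested row whose mean was higher in aged CR than in young muscle. Young AL rats had 1.02, 2.53, 1.92, 3.99, 2.50 and 2.21 CPM. Aged AL rats had 3.31, 1.28, 2.02, 1.81, 1.46 and 1.90 CPM. The aged CR libraries had 1.20, 3.55, 2.52, 2.27, 4.57 and 1.67 CPM, with library 8827 the highest of all 18. Its log2 fold change by edgeR was 0.15 (SE 0.34, adjusted p = 0.848) for aged CR against young AL muscle and 0.42 (SE 0.34, adjusted p = 0.603) for aged CR against aged AL muscle, and the first fell below 0 without library 8827.

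The 5-exon row of the minus strand, ENSRNOG00000048751 (chr6:133711154-133716847, 4815 bases), had the highest fitted biological coefficient of variation of the 5 tested rows, 64.4%, against a median of 43.1% for the 500 genes within 0.2 log2 CPM of its level. Young AL rats had 0.920, 1.58, 4.07, 1.55, 0.381 and 0.519 CPM. Aged AL rats had 1.37, 0.506, 0.911, 0.904, 0.125 and 0.603 CPM. The aged CR libraries had 0.432, 0.763, 0.0989, 0.444, 0.866 and 0.687 CPM, all below 4 of the young rats. Its log2 fold change by edgeR was −1.02 (SE 0.57, adjusted p = 0.298) in aged AL and −1.42 (SE 0.57, adjusted p = 0.183) in aged CR against young muscle, and −0.43 and −0.84 without rat 3.

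A pair of 81-base rows led the array of block 5. The first, ENSRNOG00000056115 (chr6:133791501-133791581, plus strand), had 0.533, 1.09, 3.77, 2.21, 1.23 and 1.17 CPM in young AL rats. It had 2.29, 0.545, 1.01, 1.36, 0.457 and 1.58 CPM in aged AL rats. In the aged CR libraries it had 0.288, 0.763, 0.692, 0.838, 1.30 and 0.785 CPM, a narrower and lower range that overlapped the young one. By edgeR the log2 fold change against young muscle was −0.46 (SE 0.45, adjusted p = 0.584) in aged AL and −1.08 (SE 0.46, adjusted p = 0.208) in aged CR rats, and −0.05 and −0.68 without rat 3.

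The second, ENSRNOG00000059277 (chr6:133795080-133795160, plus strand), came closest to a call among the 5. Young AL rats had 0.872, 1.31, 3.12, 2.26, 1.35 and 1.25 CPM. Aged AL rats had 1.73, 0.428, 0.506, 1.02, 0.250 and 1.71 CPM, of which 3 lay below every young rat. The aged CR libraries had 0.336, 0.987, 0.791, 0.345, 0.914 and 0.621 CPM, of which 4 lay below every young rat. The log2 fold change by edgeR was −0.85 (SE 0.45, adjusted p = 0.278) in aged AL and −1.33 (95% interval −2.29 to −0.38, adjusted p = 0.123) in aged CR muscle, and the latter was −1.08 without rat 3. Between aged CR and aged AL muscle it was −0.49 (SE 0.46, adjusted p = 0.668).

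**Figure D3:**
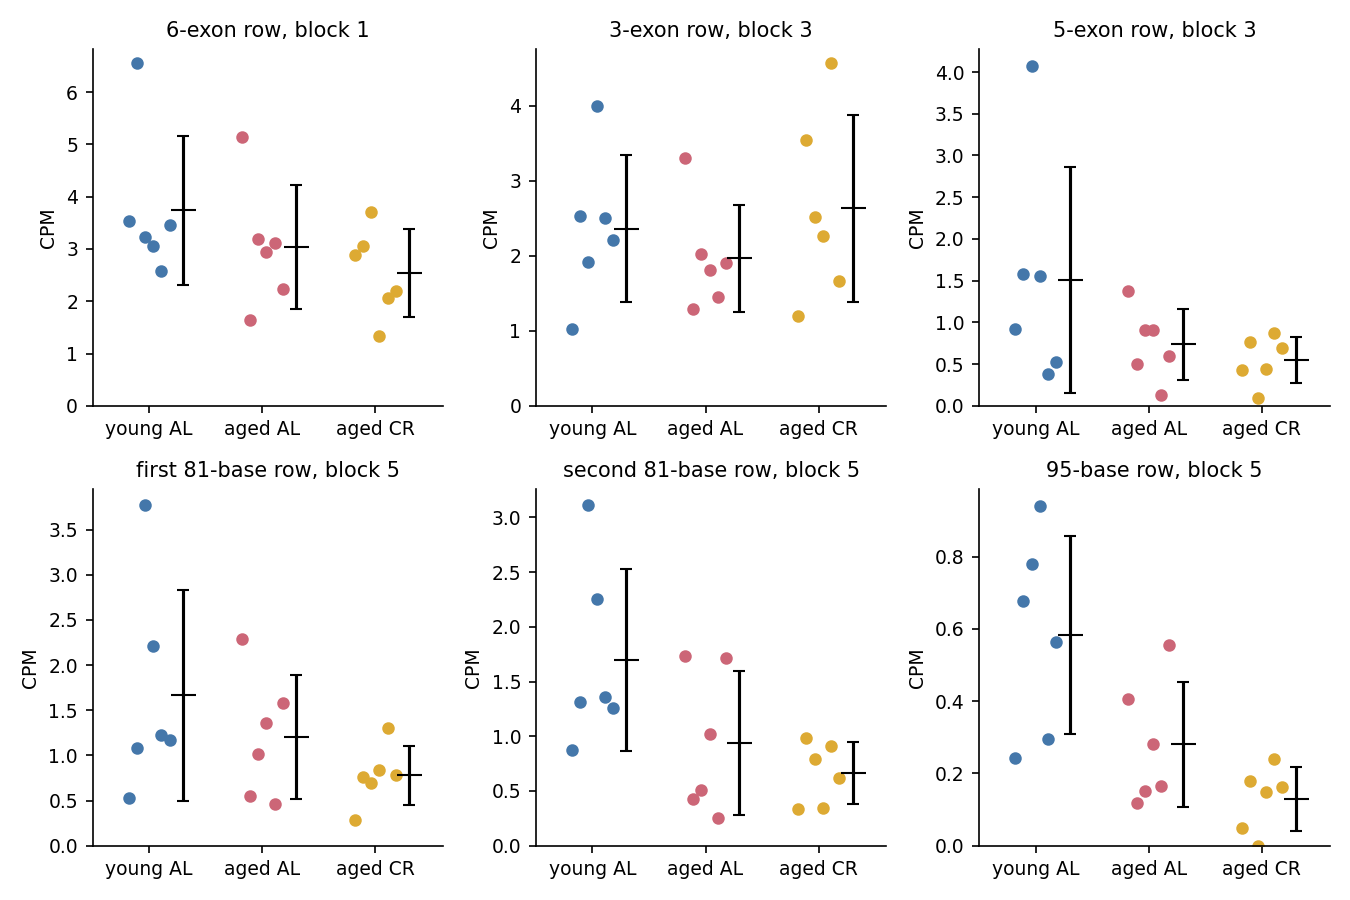
CPM of the 5 tested rows and of the 95-base row of block 5, which did not pass the filter, in each library. Black bars give the mean and SD of each group (n = 6). The aged CR points of the second 81-base row span 0.336 to 0.987 and the young points 0.872 to 3.12.

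**Figure D4:**
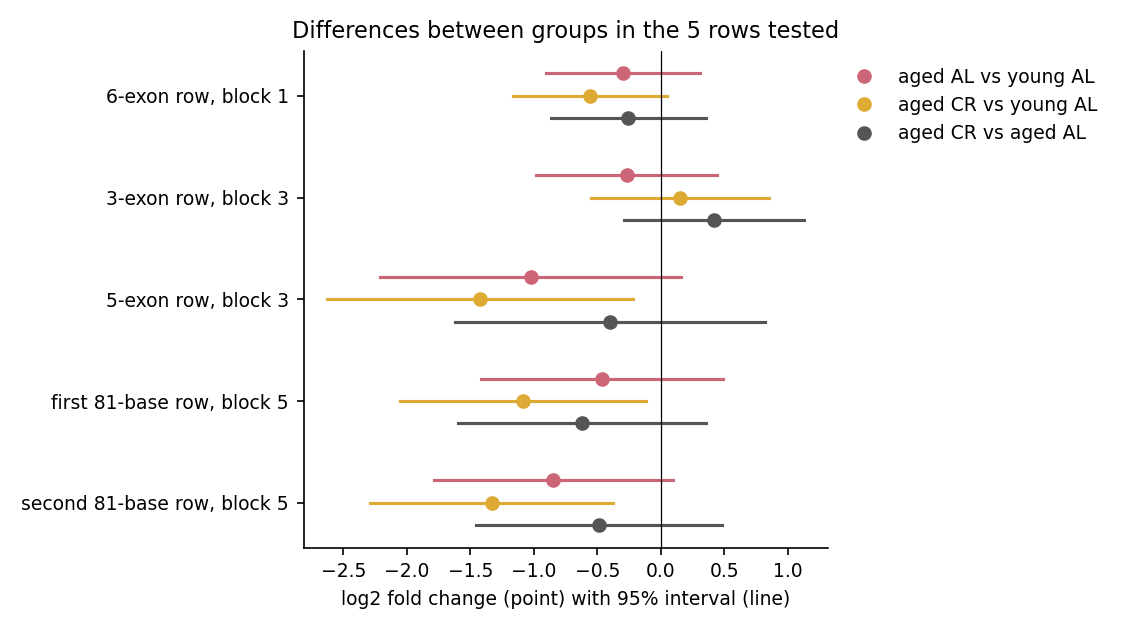
Log2 fold changes of the 5 tested rows with 95% intervals in the 3 comparisons, from the edgeR fit. The interval of the second 81-base row for aged CR against young AL muscle runs from −2.29 to −0.38, and none of the rows was called after adjustment.

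One further row of the array, ENSRNOG00000061775 (chr6:133786136-133786230, plus strand, 95 bases, 126 counts in all), did not pass the filter but separated young from aged CR muscle. Young AL rats had 5, 15, 13, 20, 7 and 13 counts, aged AL rats 8, 3, 3, 5, 4 and 12, and the aged CR libraries 1, 4, 0, 3, 5 and 5. In CPM the lowest young value was 0.242 and the highest aged CR value 0.241, a gap far smaller than 1 count. It was the 1 member of 96 whose values did not overlap between these groups, against 1.7% of all genes with a count. No member was free of overlap for aged AL against young AL muscle (1.25% of all genes) or for aged CR against aged AL muscle (1.06%). Group means were 0.583, 0.280 and 0.130 CPM.

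The call of this row differed between settings, and it was not tested in the edgeR fit above because its counts did not pass the filter. DESeq2, whose own filter kept 24 members for this comparison, gave a log2 fold change of −2.13 (SE 0.58, adjusted p = 0.00998) for aged CR against young AL muscle, its 1 call in the cluster against 4.16% of all genes. DESeq2 called 0 of 24 members for aged AL against young AL (5.81% of all genes) and 0 of 10 for aged CR against aged AL muscle (2.9% of all genes). At an unadjusted p under 0.05, DESeq2 gave 2, 8 and 0 of 96 members for aged AL against young AL, aged CR against young AL and aged CR against aged AL muscle, against 13.4%, 12.2% and 9.01% of all genes. edgeR without the filter gave −2.08 (SE 0.59, adjusted p = 0.0926). With each of the 18 libraries left out in turn, the filter of edgeR admitted the row in 16 fits and edgeR called it in 7 of them, with adjusted p-values of 0.0250 to 0.0841 over the 16. Of these fits, none of the 6 that left out an aged CR library called it, but it was called without rat 8 and library 8828 together (adjusted p = 0.0360 by edgeR). No aged CR library had over 5 counts on the row, and the filter removed it without young rat 2 or young rat 6. The row was thus admitted by the groups where it is higher, and these filtered edgeR calls support no conclusion. DESeq2 filters on the mean over all libraries, where young AL rats gave 73 counts, aged AL 35 and aged CR 18. Its call therefore supports no conclusion either.

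The other 6 rows among the 12 with the highest mean CPM were 74 to 94 bases long and had means of 0.240 to 0.341 CPM. Of these, 5 lie in block 5, and the row at chr6:133662524-133662603 opens block 3. That row was nearly level across the groups, with 0.333 ± 0.209 CPM in young AL, 0.304 ± 0.146 in aged AL and 0.354 ± 0.274 in aged CR rats (SD, n = 6 each). The 87-base row at chr6:133789711-133789797 had 0.411 ± 0.324, 0.192 ± 0.209 and 0.173 ± 0.0944 CPM. In both rows the widest SD within a group exceeded the largest difference between means. The rest, all in block 5, are given as means in young AL, aged AL and aged CR rats. These were 0.406, 0.314 and 0.304 CPM, then 0.326, 0.326 and 0.224 CPM. Next came 0.345, 0.227 and 0.288 CPM, and last 0.243, 0.319 and 0.157 CPM. The last row was thus higher in aged AL than in young AL rats.

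Rank agreement between rows was compared over libraries. Over the 18 libraries Spearman's rho was 0.87 between the pair of 81-base rows, with 0.94 in young AL, 1 in aged AL and 0.31 in aged CR rats. Each had a rho of 0.84 and 0.85 with the sum of the other 95 members. Block 5 had a rho of 0.85 with block 3 and 0.77 with block 7, 0.24 with block 1 and 0.37 with block 6. With block 1 it was −0.54 in young AL, 0.49 in aged AL and −0.26 in aged CR rats. The 6-exon row of block 1 had a rho of 0.22 with the rest of the cluster. These values describe libraries that share scaling and group, and no test was made. The sum had a rho of −0.11 with the library total over all 18 libraries, and of −0.77 in young AL, −0.26 in aged AL and 0.14 in aged CR rats. It had a rho of −0.21 with the share of counts on 2 mitochondrial rows, whose median was 0.876% in young AL, 0.824% in aged AL and 4.91% in aged CR libraries, and within these groups rho was −0.71, −0.09 and 0.49. The part of depth or of that share in the differences was not tested.

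**Figure D5:**
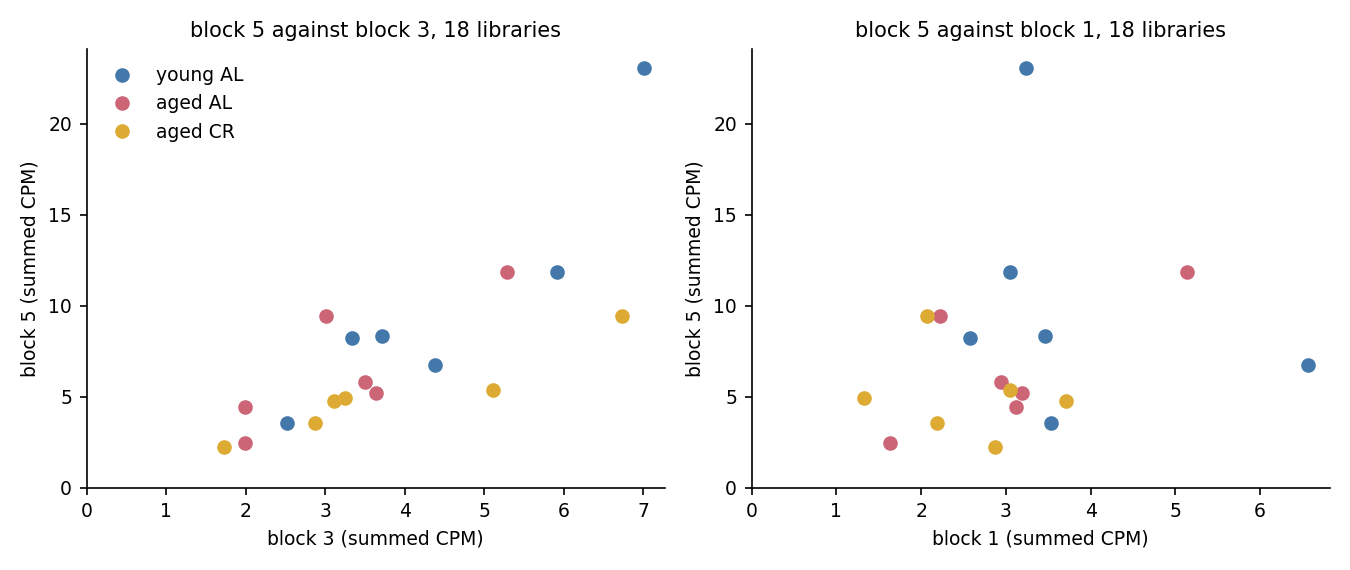
Summed CPM of block 5 against that of block 3 (left) and of block 1 (right), 1 point per library, coloured by group. Block 5 rises with block 3 over the 18 libraries (rho 0.85) and shows little order with block 1 (rho 0.24).

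Within 1 Mb on either side of the window 28 rows had a count and 19 were tested, with median log2 fold changes of −0.01, −0.11 and 0.03 in the 3 comparisons. Among them 1, 1 and 0 rows were called by edgeR, and 8, 8 and 3 of the 19 had an unadjusted p under 0.05, where 22.3%, 19.3% and 15.3% of all genes did. In each comparison with young muscle 6 of these 8 rows were lower and 2 higher, while over all genes 1553 were lower and 1706 higher in aged AL, and 1478 lower and 1354 higher in aged CR muscle. The tested rows of the cluster had medians of −0.46, −1.08 and −0.40, and no test of that difference was made.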

How the data were processed

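Gastrocnemius RNA of 18 rats was sequenced from strand-specific, ribosome-depleted libraries. According to the submitters' processing notes the authors trimmed reads with cutadapt 1.2.1 and aligned them to Rnor_6.0 with STAR 2.3.0e. The deposited counts are whole numbers per gene, not normalized, made with featureCounts 1.6.4 on Ensembl annotation release 96. The header gives no strand option and no option for multi-mapped or multiply overlapping reads, so reads of opposite strands were pooled, and near-identical or overlapping rows are uncertain.

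Groups came from the sample labels. In edgeR 4.0.16 (R 4.3.3), genes were kept by filterByExpr, libraries were scaled by TMM, and 3 comparisons were tested in 1 quasi-likelihood fit over all 18 libraries with Benjamini-Hochberg adjustment over 14646 genes. P-values set each difference against the spread between libraries, taken as 1 per rat, which the labels do not settle for the aged CR group. DESeq2 1.42.0, other scalings, filters and thresholds and leaving out libraries were alternatives. The fit was also run on simulated data, and no outcome of that run is given here. The rows described were those called and the 12 with the highest mean CPM, some of them by their group means alone. Members and lists were chosen with earlier results of these data known. Lists of imprinted genes, regulators and cell type markers need symbols, so they were not applied and the tissue label was not checked against markers.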

Additional observations from a re-analysis of the deposited data

Results flagged for a closer look

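In 42 sets of 6 libraries (blocks, sums and tested rows, by group) 4 held a library far from the rest, judged by how much of the range of the set lay between that library and its neighbour (Dixon's 95% limit). Chance flags about 1 set in 20, here 2.1. Young AL rat 2 had 6.56 CPM on ENSRNOG00000019584, the row of block 1, with 3.54 CPM the next value (gap share 0.760). Young AL rat 3 had 4.07 CPM on the minus-strand row ENSRNOG00000048751, with 1.58 CPM the next value (gap share 0.674). Aged AL rat 7 had 3.31 CPM on ENSRNOG00000059660, with 2.02 CPM the next value (gap share 0.635), and 0.153 CPM on block 4, with 0.0565 CPM the next value (gap share 0.630). The block 4 flag rests on 3 counts in rat 7 against 1 count in the next library, near the floor.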

How the results depend on the processing

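No paired analysis was possible because the replicate numbers are not shared between the groups. For aged CR against young AL muscle the number of members called was 0 in the edgeR fit, 1 with DESeq2 and 1 without rat 8 and library 8828 together, and it ranged from 0 to 1 with single libraries left out. The call was in each case the 95-base row ENSRNOG00000061775. It was in 16 of the 18 fits with 1 library left out, admitted by its young and aged AL counts, and called in 7 of them. None of these calls, by DESeq2 or edgeR, supports a conclusion. The row was in the fit without a filter and not called, and the cause was not tested. For the other 2 comparisons it was 0 under every alternative run. The log2 fold change of ENSRNOG00000059660 for aged CR against young AL muscle turned to −0.01 without library 8883 (rat 1) and to −0.075 without library 8827, with a range of −0.075 to 0.37 over single libraries left out. The other 4 tested rows kept their direction in all comparisons, with adjusted p-values from 0.0562 to 0.966. The share of the cluster sum on rows under 200 bases was 55.6%, 71.4% without the row that has the most counts and 25.003% over the rows that passed the filter. That share cannot be computed on only short or only long rows, so those alternatives were not run for it. The log2 ratio of the sums ranged from −0.77 to −0.31 for aged AL and from −0.92 to −0.41 for aged CR against young. Between the aged groups it ranged from −0.35 to 0.07. These settings include the short rows alone and the longer rows alone, but not either of them without rat 3. Without rat 3 the short rows gave −0.29 for aged AL and the longer rows −0.35 for aged CR against young, outside those ranges. A median of 11 counts per row limits what single rows can show.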
